A study of Homo sapiens with 6 samples.

Results

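The genes described here are 9 human complement genes, out of 60664 genes in a table of read counts: C3, CFB, the proteases C1R, C1S and C1RL, and the inhibitors SERPING1, CD46, CD55 and CD59. They are components and inhibitors of complement that epithelial cells make, and they were picked by name after the fold changes of the same comparison were known, among them the large ones of C3 and C1S. Their own differences between the groups are therefore given as a description and support nothing. The libraries came from PC9OR, a line of lung cancer cells whose name marks it as a derivative of PC9, a lung adenocarcinoma line with an activating deletion in EGFR. In the 3 si-GLMP libraries GLMP, the gene of a lysosomal membrane protein, had been knocked down, and the 3 NC libraries were the control, so the comparison asks which transcripts differ once GLMP is reduced. Treatment, time after knockdown, the silencing sequence and the meaning of OR are not stated in the labels, all libraries share the 1 cell line, and nothing says that replicates came from separate cultures, so the spread between them may be technical.

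Complement is a cascade of proteases in blood and tissue fluid that ends in the coating or lysis of a target. In the classical pathway, C1R activates C1S inside the C1 complex. C1S then cuts C4 and C2, and the enzyme so formed cuts C3, whose larger fragment attaches to surfaces through a thioester. In the alternative pathway, factor B, the product of CFB, joins C3b and forms a C3-cutting enzyme that amplifies the deposit. The serpin C1 inhibitor, encoded by SERPING1, inactivates C1R and C1S. Cells protect themselves with CD46, a cofactor for the cleavage of C3b and C4b, with CD55, which makes the C3-cutting enzymes fall apart, and with CD59, which stops the assembly of the membrane attack complex. The liver supplies most complement of the plasma, and airway and alveolar epithelial cells also make C3 and other components locally.

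GLMP was lower in every si-GLMP library, with 82, 61 and 65 counts in si-GLMP replicates 1 to 3 against 309, 344 and 347 counts in NC replicates 1 to 3. Library totals ran from 19896875 to 22372878 counts, and 3 counts were worth 0.133 to 0.151 CPM. CPM here is the share of a library taken by a gene, scaled to a common total, with a TMM correction for library composition. Of 8 epithelial markers, all were tested, 4 rose and 1 fell, and their summed level was 8840 to 9887 CPM in si-GLMP and 9467 to 9763 CPM in NC. Hepatocyte markers summed to 0.236 to 0.339 CPM in si-GLMP and 0.178 to 0.930 CPM in NC, with 0 of 7 passing the filter on low counts and APOB and TTR at 0. Leukocyte markers summed to 74.8 to 87.3 CPM in si-GLMP and 63.9 to 77.3 CPM in NC. Most of this sum came from LAPTM5 (means 42.7 CPM in si-GLMP and 46.0 CPM in NC) and CSF1R (30.4 and 17.7 CPM). Of these 12 markers, 7 had at most 10 counts in every library, with TYROBP, LYZ and MS4A1 at 0 in all. In the fit 5 were tested, and CSF1R was the 1 that rose. Fibroblast markers summed to 10.7 to 12.8 CPM in si-GLMP and 6.48 to 8.23 CPM in NC, and COL3A1 was at 0. Of these 7 markers, 3 were tested and COL1A1 was the 1 that rose, with 10.1 ± 0.672 CPM in si-GLMP and 5.38 ± 0.933 CPM in NC (SD, n = 3 each). Endothelial markers summed to 6.88 to 7.69 CPM in si-GLMP and 5.12 to 7.73 CPM in NC. The part of other cell types in the values below was not tested, and in bulk RNA fewer cells of a type and less RNA per cell cannot be told apart.

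C3, the central component on which all complement pathways meet, was about 3-fold higher after the knockdown. C3 (ENSG00000125730; chromosome 19 of GRCh38, 6677704 to 6730562, minus strand) had 82.2, 71.9 and 73.1 CPM in si-GLMP replicates 1 to 3, against 22.2, 25.8 and 22.9 CPM in NC replicates 1 to 3. The lowest si-GLMP library lay far above the highest NC library. The means were 75.7 ± 5.64 CPM in si-GLMP and 23.6 ± 1.89 CPM in NC (SD, n = 3 each), and the log2 fold change was 1.68 ± 0.08 (SE), which is 3.20-fold with a 95% interval of 2.86 to 3.59. In the annotation, no exon of C3 is shared with another gene.

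CFB (ENSG00000243649; chromosome 6, 31945650 to 31952084, plus strand), the partner of C3b in the alternative pathway, was barely detected. It had 7, 16 and 4 counts in si-GLMP replicates 1 to 3, against 5, 2 and 2 counts in NC replicates 1 to 3. The groups overlapped, and in NC replicates 2 and 3 the count was under the floor of 3. The sums were 27 counts in si-GLMP and 9 counts in NC, a ratio per total count of 3.08 with an exact 95% interval of 1.41 to 7.44 that covers counting error only. Leaving out 1 library at a time gave ratios from 1.90 without si-GLMP replicate 2 to 4.76 without NC replicate 1. CFB was the 1 member that did not pass the filter on low counts, so the fit over all genes gave no value for it (without the filter, a log2 fold change of 1.55, not past the threshold). A readthrough gene that shares 45.0% of the exonic length of CFB was at 0 counts in all libraries. How reads in the shared part were counted is not known, so the CFB counts are uncertain to that extent.

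The C1 proteases lie side by side on chromosome 12, and their fold differences ran from 1.17 for C1R to 3.16 for C1S. C1S (ENSG00000182326; 6988259 to 7071032, plus strand), the protease that cuts C4 and C2, had 17.0, 14.1 and 13.5 CPM in si-GLMP replicates 1 to 3, against 4.42, 4.80 and 4.84 CPM in NC replicates 1 to 3. The groups were well apart, with a log2 fold change of 1.66 ± 0.13 (SE), or 3.16-fold (95% interval 2.63 to 3.80). C1R (ENSG00000159403; 7080199 to 7092607, minus strand), which activates C1S, had 16.3, 10.8 and 13.0 CPM in si-GLMP replicates 1 to 3, against 11.9, 11.2 and 11.1 CPM in NC replicates 1 to 3. Its groups overlapped, since si-GLMP replicate 2 was below every NC library, and its log2 fold change was 0.23 ± 0.13 (SE; 1.17-fold, 95% interval 0.988 to 1.39). Without si-GLMP replicate 2 the log2 fold change of C1R was 0.36 and past the threshold, and without si-GLMP replicate 1 it was 0.060.

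C1RL (ENSG00000139178; 7089587 to 7109273, minus strand), a protease of the same family as C1R, had 20.2, 15.2 and 19.0 CPM in si-GLMP replicates 1 to 3, against 14.8, 12.6 and 14.1 CPM in NC replicates 1 to 3. The groups stood apart by a small margin, with a log2 fold change of 0.39 ± 0.11 (SE; 1.31-fold). Without si-GLMP replicate 1 it was 0.31 and no longer past the threshold. The spans of C1R and C1RL overlap by 3021 bases on the same strand, and their shared exons make up 11.4% of the exonic length of C1R and 13.4% of that of C1RL, so their counts are uncertain to that extent. C1S shares 3.54% of its exonic length with EMG1 on the same strand.

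SERPING1, the gene of the C1 inhibitor, was the 1 member on the lower side of the threshold. SERPING1 (ENSG00000149131; chromosome 11, 57597387 to 57614853, plus strand) had 2.59, 1.89 and 2.76 CPM in si-GLMP replicates 1 to 3, against 2.66, 5.63 and 3.64 CPM in NC replicates 1 to 3. The groups overlapped, as NC replicate 1 lay below si-GLMP replicate 3. The counts behind these values were 53, 40 and 57 in si-GLMP replicates 1 to 3, and 53, 115 and 82 in NC replicates 1 to 3. The log2 fold change was -0.72 ± 0.22 (SE), or 0.607-fold (95% interval 0.447 to 0.823). It rested on NC replicate 2 and si-GLMP replicate 2: without NC replicate 2 it was -0.39, without si-GLMP replicate 2 it was -0.57, and neither was past the threshold, nor was the DESeq2 value of -0.73.

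The 3 membrane inhibitors had high levels that differed little between the groups. CD46 (ENSG00000117335; chromosome 1, 207752057 to 207795513, plus strand) had 245, 288 and 236 CPM in si-GLMP replicates 1 to 3, against 246, 244 and 262 CPM in NC replicates 1 to 3. CD55 (ENSG00000196352; chromosome 1, 207321376 to 207386804, plus strand) had 62.0, 68.3 and 65.3 CPM in si-GLMP replicates 1 to 3, against 59.8, 68.7 and 58.4 CPM in NC replicates 1 to 3. CD59 (ENSG00000085063; chromosome 11, 33703010 to 33736491, minus strand) had 126, 135 and 117 CPM in si-GLMP replicates 1 to 3, against 129.9, 122 and 133 CPM in NC replicates 1 to 3. In each of these 3 genes the ranges of the groups overlapped. The fold was 1.02 for CD46 (95% interval 0.932 to 1.12), 1.05 for CD55 (0.943 to 1.16) and 0.982 for CD59 (0.894 to 1.08), so a change as large as that of C3 or C1S lay outside each interval. The sign of the CD46 fold change turned without si-GLMP replicate 2, and that of CD59 turned when replicate 3 of either group was left out.

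**Figure D1:**
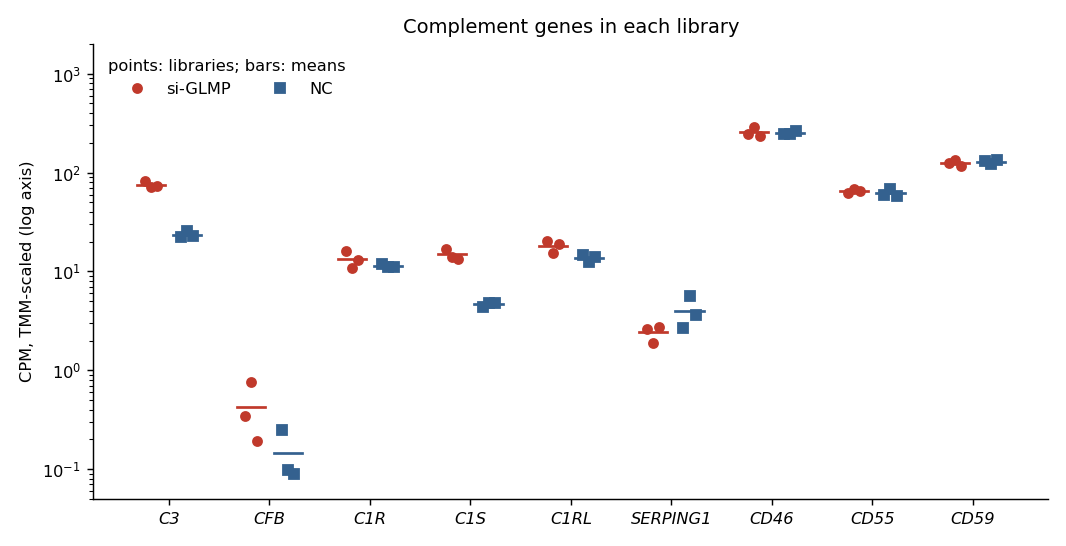
CPM (TMM-scaled, log axis) of the 9 complement genes in each of the 3 si-GLMP libraries (circles) and 3 NC libraries (squares), with horizontal bars at the group means. C3 and C1S stand apart between the groups, at 75.7 and 14.8 CPM in si-GLMP against 23.6 and 4.68 CPM in NC, while the points of CD46, CD55 and CD59 lie on top of each other.

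Of the 8 members that passed the filter, C3, C1S and C1RL (3) lay on the higher side, SERPING1 (1) lay on the lower side and 4 did not reach the threshold, which was an adjusted p of 0.05 in edgeR's quasi-likelihood test over all genes. Over all 15900 tested genes, 12.0% were higher and 11.3% lower, together 23.3%. Groups without overlap in CPM were seen in 3 of the 8 members (C3, C1S and C1RL), against 36.5% of all tested genes. Nothing is read from these counts, because the members were chosen with this comparison known. The median log2 fold change of the 8 members was 0.15, and that of all tested genes was 0.0036.

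**Figure D2:**
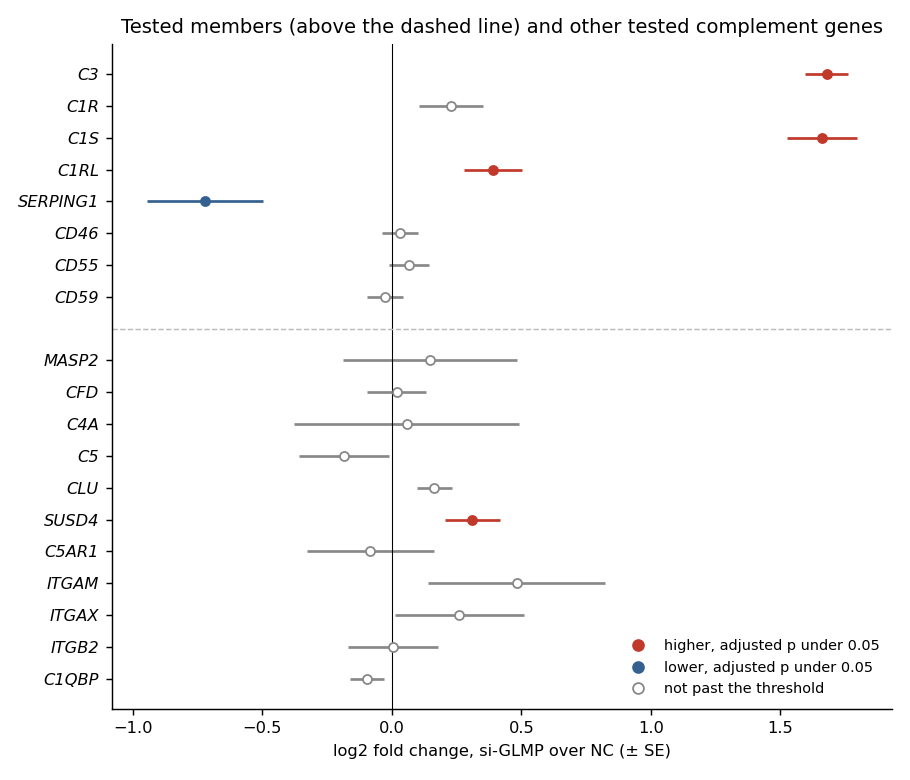
Log2 fold change (si-GLMP over NC, ± SE) of the 8 tested members above the dashed line and of 11 of the 12 other tested complement genes below it. C3 (1.68) and C1S (1.66) lie far to the right, SERPING1 (-0.72) to the left, and SUSD4 (0.31) is the 1 gene below the line that passed the threshold.

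Levels of different genes were compared per kilobase of exon, as CPM divided by the joined length of all annotated exons. In si-GLMP the order was CD46 (29.4 ± 3.21), CD59 (12.2 ± 0.886), CD55 (11.0 ± 0.534), C3 (9.09 ± 0.677), C1RL (3.62 ± 0.519), C1S (2.30 ± 0.294), C1R (2.27 ± 0.472), SERPING1 (0.670 ± 0.129) and CFB (0.0861 ± 0.0581 CPM per kb, SD, n = 3). In NC it was CD46 (28.8 ± 1.17), CD59 (12.4 ± 0.571), CD55 (10.6 ± 0.948), C3 (2.84 ± 0.226), C1RL (2.76 ± 0.228), C1R (1.93 ± 0.0762), SERPING1 (1.10 ± 0.419), C1S (0.725 ± 0.0357) and CFB (0.0292 ± 0.0182 CPM per kb, SD, n = 3). Neighbours whose difference was within their spread were CD59 and CD55, and C1S and C1R, in si-GLMP, and C3 and C1RL, and SERPING1 and C1S, in NC. The membrane inhibitors thus led in both groups, and per kilobase of exon C3 was close behind CD55 in si-GLMP. With coding length in place of exon length, a setting added after the data were seen, CD59 came before CD46 in both groups, and C1RL and C1R came before C3 in NC. C3 was then further behind CD55 in si-GLMP, at 15.1 against 26.4 CPM per kb of coding length.

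Ratios within a library do not depend on how libraries are scaled. Per kilobase, the C1S level was 0.952, 1.19 and 0.945 of the C1R level in si-GLMP replicates 1 to 3, against 0.338, 0.391 and 0.397 in NC replicates 1 to 3. The partner proteases of C1 were thus near parity in the si-GLMP libraries, and C1S was the scarcer one in every NC library. The C3 level was 0.941, 0.747 and 0.794 of the CD55 level in si-GLMP replicates 1 to 3, against 0.264, 0.266 and 0.278 in NC replicates 1 to 3. SERPING1, the inhibitor, stood at 0.133, 0.131 and 0.179 of the summed C1R and C1S level in si-GLMP replicates 1 to 3, against 0.273, 0.592 and 0.383 in NC replicates 1 to 3. Each of these ratios separated the groups, as a description of members chosen with the comparison known. SERPING1 itself overlapped between the groups, and C1S, in the divisor of its ratio, averaged 2.30 CPM per kb in si-GLMP and 0.725 CPM per kb in NC. The ratio of C1RL to C1R averaged 1.61 ± 0.136 in si-GLMP and 1.43 ± 0.0903 in NC (SD, n = 3 each), and its ranges overlapped. With coding length, the mean ratio of C1S to C1R was 1.07 in si-GLMP and 0.391 in NC, that of C3 to CD55 was 0.573 in si-GLMP and 0.187 in NC, and that of SERPING1 to the proteases was 0.111 in si-GLMP and 0.315 in NC.

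**Figure D3:**
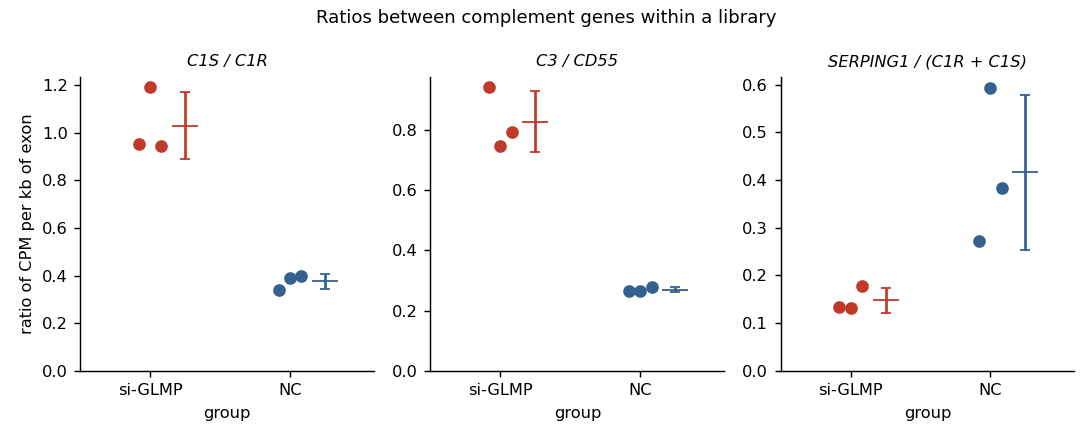
Ratios of CPM per kilobase of exon within each library, for C1S over C1R, C3 over CD55, and SERPING1 over the sum of C1R and C1S; points are the 3 si-GLMP and 3 NC libraries, and bars are mean ± SD. The mean ratio was 1.03 in si-GLMP and 0.376 in NC for C1S over C1R, 0.827 in si-GLMP and 0.269 in NC for C3 over CD55, and 0.148 in si-GLMP and 0.416 in NC for SERPING1 over the proteases.

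The sequences in front of the members were looked at for motifs of the factors that drive complement genes in inflammation, in RefSeq promoter windows of GRCh38.p14 that hold 250 bases before and 50 after a transcript start. Of the 9 members, 6 had 1 or more windows, 11 in all; C3, C1S and SERPING1 had none. The motifs, read on both strands, were the NF-kB motif GGGANNNNCC, the interferon-stimulated response element GAAANNGAAA, the gamma-activated site TTCNNNGAA and the C/EBP core TTGCNNAA. Among all 35116 windows of the table, 25.6% held the NF-kB motif, 3.57% the interferon-stimulated element, 7.66% the gamma-activated site and 10.5% the C/EBP core, and 41.6% held at least 1 of the 4. A motif was found in 7 of the 11 member windows, in CFB, C1R, C1RL and CD59. Windows of 1 gene can overlap, and 2 of the CD59 windows held the same gamma-activated site, so the 7 windows are not separate sites. No match was found in the windows of CD46 and CD55.

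Shown are the windows of CFB and C1R, which held 3 kinds of motif each, of C1RL, the neighbour of C1R, and of CD55 as one without a match. Each reads 5′ to 3′ on the strand of its gene, and capitals mark the motif matches. The CFB window lies at chr6:31945845-31946144 (plus strand), the C1R window at chr12:7091844-7092143 (minus strand), the C1RL window at chr12:7109165-7109464 (minus strand) and the CD55 window at chr1:207321428-207321727 (plus strand).
CFB: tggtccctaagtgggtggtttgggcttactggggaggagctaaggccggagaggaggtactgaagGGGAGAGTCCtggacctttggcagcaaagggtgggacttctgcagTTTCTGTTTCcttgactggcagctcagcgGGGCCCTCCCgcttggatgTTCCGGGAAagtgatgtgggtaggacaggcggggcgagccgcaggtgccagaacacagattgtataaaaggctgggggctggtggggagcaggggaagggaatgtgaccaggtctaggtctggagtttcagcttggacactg
C1R: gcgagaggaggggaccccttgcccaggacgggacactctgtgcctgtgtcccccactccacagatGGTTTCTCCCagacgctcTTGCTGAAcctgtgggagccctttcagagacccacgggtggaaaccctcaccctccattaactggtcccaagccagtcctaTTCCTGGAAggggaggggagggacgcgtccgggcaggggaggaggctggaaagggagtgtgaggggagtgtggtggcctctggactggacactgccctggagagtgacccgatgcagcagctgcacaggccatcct
C1RL: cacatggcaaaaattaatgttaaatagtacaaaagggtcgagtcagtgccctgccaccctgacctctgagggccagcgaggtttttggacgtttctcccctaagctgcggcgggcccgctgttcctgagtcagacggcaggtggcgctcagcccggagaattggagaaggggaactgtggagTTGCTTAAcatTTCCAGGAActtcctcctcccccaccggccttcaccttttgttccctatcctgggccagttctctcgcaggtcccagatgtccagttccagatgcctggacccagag
CD55: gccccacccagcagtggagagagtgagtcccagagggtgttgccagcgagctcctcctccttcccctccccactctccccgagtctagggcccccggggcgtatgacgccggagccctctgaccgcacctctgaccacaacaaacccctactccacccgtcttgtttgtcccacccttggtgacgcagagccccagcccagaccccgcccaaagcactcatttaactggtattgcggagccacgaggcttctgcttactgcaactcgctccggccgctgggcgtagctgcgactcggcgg

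Counted from the start, with -1 as the last base before it, the CFB window held the NF-kB motif at -185 to -176 and, on the other strand, at -111 to -102. It also held the interferon-stimulated element at -140 to -131 on the other strand and the gamma-activated site TTCCGGGAA at -92 to -84. The C1R window shown held the NF-kB motif at -185 to -176 on the other strand, the C/EBP core TTGCTGAA at -167 to -160 and the gamma-activated site TTCCTGGAA at -86 to -78. A second C1R window, from another transcript start, held the NF-kB motif at 24 to 33 and the C/EBP core at -106 to -99 on the other strand. The C1RL window held the C/EBP core TTGCTTAA at -68 to -61 and the gamma-activated site TTCCAGGAA at -57 to -49. None of these matches overlapped another motif. The gamma-activated site reads alike on both strands, so each place counts once. A match is a description of the letters only.

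Most of the other complement genes had too few counts to be tested. Of 50 further complement genes in 6 lists, 12 passed the filter, 1 rose, 0 fell and 11 did not reach the threshold, against 23.3% called of all tested genes. SUSD4, a membrane protein that inhibits complement activation, had 18.5, 16.7 and 19.6 CPM in si-GLMP replicates 1 to 3, against 13.9, 15.5 and 14.8 CPM in NC replicates 1 to 3. The groups did not overlap, and SUSD4 rose by 0.31 ± 0.11 (log2, SE; adjusted p = 0.0270 in edgeR). This call was lost in DESeq2 (adjusted p = 0.0560) and in edgeR when replicate 1 or 3 of NC or of si-GLMP was left out (adjusted p = 0.0595 to 0.137).

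The recognition molecules that start the pathways were not found at a level that could be tested. None of 10 passed the filter, their highest count in any library was 6, and 4 of them, C1QA, C1QB, FCN1 and FCN2, had 0 counts in all libraries. Of 4 other proteases, 2 were tested and 0 called by edgeR, DESeq2 or limma-voom, with 0 at an unadjusted p under 0.05, and C2, which C1S cuts, reached at most 5 counts. CFD, the protease that cuts factor B, averaged 13.4 ± 1.36 CPM in si-GLMP and 13.2 ± 0.859 CPM in NC (SD, n = 3 each; log2 change 0.018 ± 0.12, adjusted p = 0.936 in edgeR). MASP2, a protease of the lectin pathway, averaged 1.17 ± 0.349 CPM in si-GLMP and 1.06 ± 0.471 CPM in NC (adjusted p = 0.807 in edgeR).

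Of 9 thioester and terminal components, 2 were tested and 0 called by edgeR, DESeq2 or limma-voom, with 0 at an unadjusted p under 0.05. C5, cut at the start of the terminal pathway, averaged 4.17 ± 0.732 CPM in si-GLMP and 4.73 ± 0.532 CPM in NC (SD, n = 3 each; adjusted p = 0.492 in edgeR). C4A, the substrate of C1S, averaged 0.563 ± 0.0818 CPM in si-GLMP and 0.538 ± 0.0913 CPM in NC (adjusted p = 0.947 in edgeR), and it shares reads with its near-identical copy C4B, so its value is uncertain. The 7 that were not tested, among them C6, C7, C8A, C8B and C9 of the membrane attack complex, had at most 9 counts in any library.

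Of 13 soluble regulators, 2 were tested and 0 called by edgeR, DESeq2 or limma-voom, with 1 (CLU) at an unadjusted p under 0.05. CLU, the gene of clusterin, which binds the terminal complex, had 239.8, 235 and 238 CPM in si-GLMP replicates 1 to 3, against 203, 239 and 194 CPM in NC replicates 1 to 3. Its groups overlapped because NC replicate 2 was at the si-GLMP level, and its change was 0.16 ± 0.07 (log2, SE; adjusted p = 0.0743 in edgeR). Without NC replicate 2 it was 0.26 (adjusted p = 0.00408 in edgeR), and in the fit blocked on replicate number the adjusted p was 0.0476. CFI, the protease for which CD46 is a cofactor, had 0 counts in all libraries.

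Of 8 complement receptors, 5 were tested and 0 called by edgeR, DESeq2 or limma-voom, with 0 at an unadjusted p under 0.05. C1QBP, a mitochondrial protein that also binds C1q, averaged 253 ± 9.05 CPM in si-GLMP and 270.3 ± 20.5 CPM in NC (SD, n = 3 each; adjusted p = 0.318 in edgeR). ITGB2, the beta chain of the leukocyte receptors for C3 fragments, averaged 4.70 ± 0.974 CPM in si-GLMP and 4.69 ± 0.747 CPM in NC (adjusted p = 0.991 in edgeR). C3AR1, the receptor of the C3a fragment, had at most 3 counts in any library.

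Cytokine genes known to induce complement were higher wherever they could be tested. Of 11 cytokines, 4 passed the filter and all 4 rose, against 12.0% of all tested genes. This list and the lists of receptors, transcription factors and acute phase genes below were chosen with earlier results of these data known. Their shares are given as a description. IL1A, an epithelial alarm cytokine, had 53.3, 68.4 and 59.7 CPM in si-GLMP replicates 1 to 3, against 33.2, 28.2 and 39.6 CPM in NC replicates 1 to 3. Its groups did not overlap (log2 fold change 0.84 ± 0.10, SE; adjusted p = 1.86e-06 in edgeR). IL6, the main inducer of the acute phase in liver, was scarce, with 31, 41 and 55 counts in si-GLMP replicates 1 to 3 and 11, 12 and 12 counts in NC replicates 1 to 3, and its log2 fold change was 1.86 ± 0.33 (adjusted p = 1.32e-05 in edgeR). LIF, of the same cytokine family, rose by 0.58 ± 0.07 (adjusted p = 3.00e-09 in edgeR) and IL1B by 0.34 ± 0.07 (adjusted p = 0.000239 in edgeR). The other 7, among them TNF and IFNG, had at most 7 counts in any library.

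Genes that receive or carry these signals rose in part. Of 27 tested transcription factors and receptors known to drive complement genes, 9 rose, 1 fell and 17 did not reach the threshold, or 37.0% called against 23.3% of all tested genes, with a median log2 fold change of 0.13. IL6R, the receptor chain for IL-6, averaged 67.1 ± 6.41 CPM in si-GLMP and 38.4 ± 1.76 CPM in NC (SD, n = 3 each; log2 change 0.81 ± 0.08, adjusted p = 1.03e-11 in edgeR). IL1RAP, the shared chain of interleukin-1 receptors, averaged 27.3 ± 3.77 CPM in si-GLMP and 13.5 ± 1.77 CPM in NC (log2 change 1.01 ± 0.11, adjusted p = 1.35e-10 in edgeR). The oncostatin M receptor gene OSMR rose by 0.40 ± 0.07 (adjusted p = 7.00e-06 in edgeR) and the interferon-gamma receptor gene IFNGR1 by 0.46 ± 0.08 (adjusted p = 1.58e-05 in edgeR). Partner chains of these receptors did not reach the threshold. The log2 change was 0.092 for IL6ST, -0.067 for IFNGR2 and 0.33 for IL1R1 (adjusted p = 0.409, 0.662 and 0.0543 in edgeR). The 1 lower gene was the interferon regulatory factor IRF2, chosen after its values were seen (log2 fold change -0.40 ± 0.10, adjusted p = 0.00249 in edgeR).

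In a list of acute phase genes that also held the elastase inhibitor genes PI3 and SLPI, the genes that rose were LCN2, PI3, SLPI and IL1RN. Most of the list had too few counts to be tested, so the tested genes do not stand for the acute phase as a whole. Of the 22 listed genes, 5 passed the filter, 4 rose and 1 was not past the threshold, against 12.0% higher of all tested genes. LCN2, an iron-trapping lipocalin, had 4.06, 2.78 and 3.88 CPM in si-GLMP replicates 1 to 3, against 0.854, 0.881 and 0.577 CPM in NC replicates 1 to 3. Its groups were far apart (log2 fold change 2.21 ± 0.26, SE; adjusted p = 2.05e-09 in edgeR). The elastase inhibitor genes PI3 and SLPI rose by 1.32 ± 0.14 (adjusted p = 5.60e-11 in edgeR) and 0.80 ± 0.09 (adjusted p = 1.65e-09 in edgeR), and the interleukin-1 receptor antagonist gene IL1RN rose by 0.75 ± 0.13 (adjusted p = 4.81e-06 in edgeR). SERPINA1, an elastase inhibitor gene of liver and lung chosen after its values were seen, was not past the threshold (-0.39 ± 0.41, adjusted p = 0.552 in edgeR), and the 17 others, among them CRP, SERPINA3 and the fibrinogen genes, had at most 13 counts in any library.

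**Figure D4:**
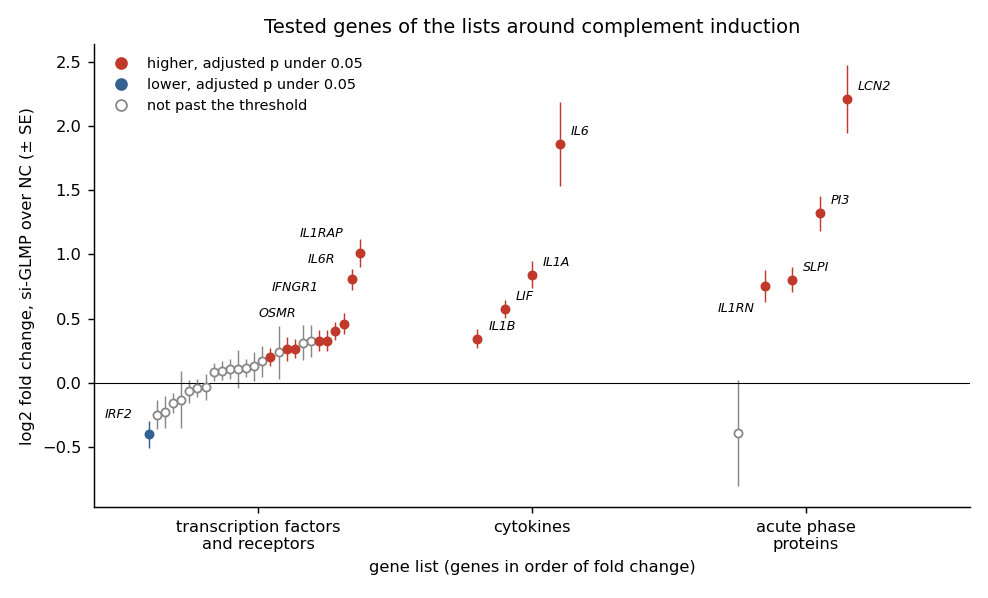
Log2 fold change (si-GLMP over NC, ± SE) of the tested genes of 3 lists around complement induction, in order of fold change within each list; filled points passed the threshold. All 4 cytokines and 4 of the 5 tested genes of the acute phase list lie above 0 and are filled, while the 27 transcription factors and receptors spread on both sides of 0.

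The genes whose profile over the 6 libraries was most like that of C3 were found by the Euclidean distance between log2 CPM values centred on each gene's mean, among 10623 genes with a mean of at least 100 counts, the complement members left out of the candidates. Outside the members they were ANGPTL4 (distance 0.397), TMOD1 (0.416), CARD6 (0.458), TMEM45B (0.500) and PI3 (0.522). ANGPTL4, a lipase inhibitor, averaged 26.8 ± 1.99 CPM in si-GLMP and 8.42 ± 0.944 CPM in NC (SD, n = 3 each), and PI3 averaged 13.2 ± 2.51 CPM in si-GLMP and 5.30 ± 0.236 CPM in NC. The log2 fold changes of the 5 ran from 1.32 to 1.67, all under the 1.68 of C3. Around CD55, which differed little between the groups, the nearest genes were much closer, from FAM222B (distance 0.0457), KLF3 (0.0541) and UBE2L3 (0.0650) to C12orf65 (0.0721) and SUB1 (0.0730). The distances were taken over these same libraries, so genes near C3 had to differ between the groups much as C3 did. Likewise, genes near CD55 had to differ little. Nothing about shared control is read from either list.

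Position was looked at because complement genes sit in clusters. Within 100 kb of a member lay 41 tested genes, of which 11 rose, 4 fell and 26 did not reach the threshold, or 36.6% called against 23.3% of all tested genes, with a median log2 fold change of 0.023. Leaving out 1 library at a time gave 9 to 17 called neighbours, 9 of them without NC replicate 3 and also without si-GLMP replicate 3. KIAA1549L, near CD59, fell by 0.85 ± 0.08 (log2, SE; adjusted p = 1.68e-12 in edgeR). NEU1, a lysosomal sialidase gene near CFB, rose by 0.71 ± 0.11 (adjusted p = 4.56e-07 in edgeR). Near C1S, the enolase gene ENO2 rose by 0.48 ± 0.09 (adjusted p = 5.53e-05 in edgeR), and EMG1, a ribosome assembly gene whose span overlaps C1S, rose by 0.39 ± 0.09 (adjusted p = 0.000603 in edgeR). Around C3, 4 of 5 tested neighbours were higher and 1 lower, a group singled out after its values were seen. Some of these calls were close to the threshold, with adjusted p of 0.0300 to 0.0350 in edgeR. Further from it were TNFSF14, with at most 31 counts per library, and the lower gene TRIP10. Their log2 fold changes were 1.34 ± 0.37 and -0.28 ± 0.07 (SE; adjusted p = 0.00538 and 0.00389 in edgeR). A change of the region was not tested. On the other side of the C1 cluster, 0 of the 5 tested genes nearest to C1RL passed the edgeR threshold (PEX5, chosen after its values were seen, had an adjusted p of 0.0578 and passed in 4 of 13 alternative settings, among them the replicate block with an adjusted p of 0.0288), and C1RL-AS1, which shares 4.09% of the exonic length of C1RL on the opposite strand, had a log2 fold change of -0.013 ± 0.11.

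**Figure D5:**
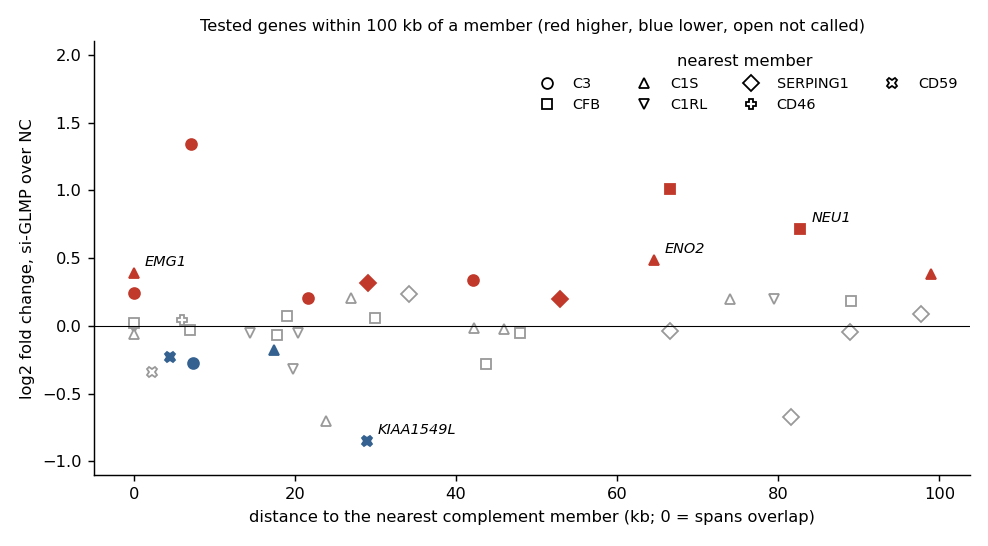
Log2 fold change (si-GLMP over NC) of the 41 tested genes within 100 kb of a complement member against their distance to the nearest member in kb, with 1 symbol shape per member. Filled points passed the threshold, 11 above 0 and 4 below it. The 5 genes nearest to C3 (circles) are all filled, some of them close to the threshold.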

How the data were processed

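Deposited by the authors were read counts per gene, whole numbers with unequal totals and no normalization, for 3 si-GLMP and 3 NC libraries of PC9OR cells. The submitters' processing notes name HISAT2 and GRCh38. Not given in the sources used here are the counting tool, its annotation release and whether strand was used. RNA was extracted with Trizol, per the labels' protocols.

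Members were matched by gene symbol. Counts were analysed with edgeR 4.0.16 (R 4.3.3): filterByExpr (minimum count 10), TMM factors, robust quasi-likelihood fits and F test, group as the only term, Benjamini-Hochberg adjustment over 15900 genes, threshold 0.05. Standard errors are the absolute log2 fold change over the root of F, and 95% intervals are 1.96 standard errors. Gene spans, exon lengths and overlaps came from GENCODE 29 (GRCh38). The labels do not state a pairing by replicate number, and none was used in the main fit. Deviations of same-numbered libraries correlated weakly (0.039, 0.026 and 0.0013), so a weak pairing remains possible. The fit was checked on simulated data. Alternatives were RLE and upper-quartile scaling, 2 other filters, DESeq2 1.42.0, limma-voom 3.58.1, each library left out, and the replicate block.

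The members, gene lists and tests were chosen with earlier results of these data known. Besides the members and GLMP, the text names of each list up to 4 called genes by smallest adjusted p, or up to 2 by level where none was called; other genes named, markers aside, were chosen after their values were seen. Of the genes of this rule, 1 is not reported here.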

Additional observations from a re-analysis of the deposited data

How the results depend on the processing

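Counts of called genes and the fold changes of the genes named singly were recomputed under 13 alternatives, except C4A and SERPINA1, which could be tested under 12, and the CFB ratio, which was recomputed in the 6 that leave out 1 library. The fold changes of the epithelial markers and of LAPTM5, IL6ST, IFNGR2, IL1R1, TNFSF14 and TRIP10 were not recomputed. C3, C1S and CD55 kept their direction and side of the threshold in all 13, with log2 fold changes of 1.62 to 1.75, 1.55 to 1.73 and 0.023 to 0.14. With the replicate number as a block 3972 genes were called against 3712 without it, and 1 soluble regulator (CLU) was called against 0; this block ended no call among the members. DESeq2 called 0 membrane regulators outside the members against 1. Leaving out 1 library at a time gave 0 to 1 soluble regulators, 0 to 1 membrane regulators and 9 to 17 neighbours. In those fits the log2 fold change ranged from -0.060 to 0.096 for CD46, from -0.079 to 0.032 for CD59, from -0.068 to 0.075 for CFD, from -0.11 to 0.57 for MASP2, from -0.064 to 0.18 for C4A, from -0.14 to 0.16 for ITGB2, from -0.0040 to 0.13 for SUB1 and from -0.054 to 0.042 for C1RL-AS1, none of them called in any of these fits; ITGB2 was also -0.0051 by limma-voom and -0.0024 with the block. CFB, tested without the filter, had an edgeR adjusted p of 0.158. The cause of these shifts was not tested. Low counts limit CFB, with at most 16 per library, and C4A, with at most 14.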
